A study of Mus musculus with 93 samples.

Results

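The comparison asked whether exposure to the pyrethroid pesticide deltamethrin (DM) before birth and through nursing left a trace in the cortex of adult Chd8 mutant mice. It covered 19 of the 93 RNA-sequencing libraries in the series, chosen by their labels for age (12 months), genotype (Chd8 heterozygous) and exposure, 10 with DM and 9 with oil. All 19 came from males heterozygous for a loss-of-function mutation of Chd8 (Chd8V986*/+), bred from mutant sires and C57BL/6J dams. The dams of the DM group were fed 3 mg/kg DM in peanut butter every 3 days, from the day a mating plug was found until the pups were weaned at postnatal day (PND) 22, and those of the oil group received oil in the same way. The mice themselves were then left unexposed until 12 months, when the cortex of 1 hemisphere was taken. Each library was 1 mouse of its own litter, so the 10 DM and 9 oil mutants represent 10 and 9 litters, and each litter also gave 1 wild-type (WT) male. DM differed between litters and cannot be told apart from litter within the mutants. The mutation was present in every cell of the mouse, so a response that starts in vessels or neurons cannot be assigned to one of them from the genotype.

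DM acts on nerve cells by keeping voltage-gated sodium channels open, and pyrethroids are cleared largely by esterases and cytochrome P450 enzymes. Chd8 is a chromatin remodeler that binds the promoters of many genes, and its loss on one allele is a recurrent cause of autism in people. Vessels of the brain are lined by endothelial cells, which are kept alive and branching by vascular endothelial growth factor (VEGF) acting on the receptors Kdr and Flt1. They are joined by tight junctions that form the blood-brain barrier, rest on a basement membrane of laminin, collagen, nidogen and fibronectin, and are wrapped by mural cells (pericytes and smooth muscle) and, on larger vessels, by fibroblasts.

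Values are on the log2 scale after the variance-stabilizing transformation of the counts. The authors removed batch number, sex, dissector and litter number from every gene before deposit, which shifted the level of each gene, so a level can be compared between mice but not between genes. Levels given below are the deposited values after the fitted batch and litter number terms were taken out and centred on the 38 mice of 12 months. A difference is DM minus oil from limma, with its standard error (SE), in a model of 82 libraries with 1 mean for each of 8 groups and terms for batch, sex, dissector and the number of the litter. Calls are genes whose p, adjusted over every gene tested (Benjamini-Hochberg), was under 0.05. Without counts the depth per library is unknown (the study's methods state only a median over its samples), and the number of mice sets the precision. The correlation between the 19 libraries lay between 0.965 and 0.998, and no pair was identical. The mutants' Chd8 level was 11.02 (lowest), 11.45 (median) and 11.66 (highest) in oil mice and 11.12, 11.41 and 11.72 in DM mice. It was below that of the WT littermate in 9 of 9 oil litters and 10 of 10 DM litters, although the lowest WT oil mouse, at 11.57, lay within the range of the mutants. Chd8 itself differed by 0.02 between DM and oil mutants (SE 0.0977, adjusted p = 1), a value whose sign changed when single libraries were left out (−0.03 to 0.06).

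In 12 month old mutants, DM mice had slightly lower levels of genes of blood vessels and the tissue around them than oil mice, and no single gene among the well-measured ones passed the test. Of 12152 genes whose mean value reached 6, limma called 0 (0%), and the smallest adjusted p was 0.285. At an unadjusted p under 0.05 there were 238 lower genes (1.96%) and 115 higher genes (0.946%). Across the lists of vessel cells, VEGF signaling, barrier, integrins and matrix, 141 different genes were tested by this filter. Of these, 115 lay lower in DM mutants (47.2% of all genes did), 35 (24.8%) were lower at an unadjusted p under 0.05, and 0 were higher. The lists were written with earlier results of these data known. They hold genes that the study picked as lower on these same libraries, such as Kdr and Fn1. The 141 do not take in the lists of TGF-beta and BMP signaling of vessels and of focal adhesion linkers. By the same filter 10 of 17 and 14 of 24 members of those lists lay lower, with 2 of each at an unadjusted p under 0.05. In WT littermates 97 of the same 141 lay lower (52.4% of all genes did), 7 at an unadjusted p under 0.05, with 3 higher. In WT mice limma called 0 genes (0%), with 185 lower (1.52%) and 209 higher (1.72%) at an unadjusted p under 0.05. A test of whether the difference in mutants differed from that in WT littermates also called 0 genes (0%), with 289 at an unadjusted p under 0.05, 139 of them more negative in the mutant (1.14%). That model treats the 2 littermates as independent. With litter as a random effect it called 2 genes (Trp73 and Lrrc46, neither in a vessel list), with 711 at an unadjusted p under 0.05. The lists share genes and the genes share mice, so these counts describe these 19 mice and are not independent pieces of evidence.

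Endothelial markers lay lower in DM mutants with few exceptions. Genes of this list and others with low mean values were kept if no 2 libraries sharing age, litter, sex, batch and dissector had the same value. Only these 38 pairs were compared, so a gene at its floor in other libraries could be kept. This filter on ties kept 15473 genes, of which 49.3% lay lower in DM mutants and 2.1% were lower at an unadjusted p under 0.05. All 42 endothelial markers were kept, 37 lay lower and 5 higher, 17 were lower and 0 higher at an unadjusted p under 0.05, and limma called 0. Their median difference was −0.12, against 0.00 over all genes, and single genes ran from −0.43 to 0.15. In all 4 batches 19 of the 42 lay lower, against 5.69% of all genes kept. The median difference was −0.08 in batch 1, −0.22 in batch 2, −0.11 in batch 3 and −0.13 in batch 4. In WT littermates the median was −0.05, with 31 of 42 lower, against 52.8% of all genes kept. In bulk tissue, fewer endothelial cells and less RNA of these genes per cell cannot be told apart.

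**Figure D1:**
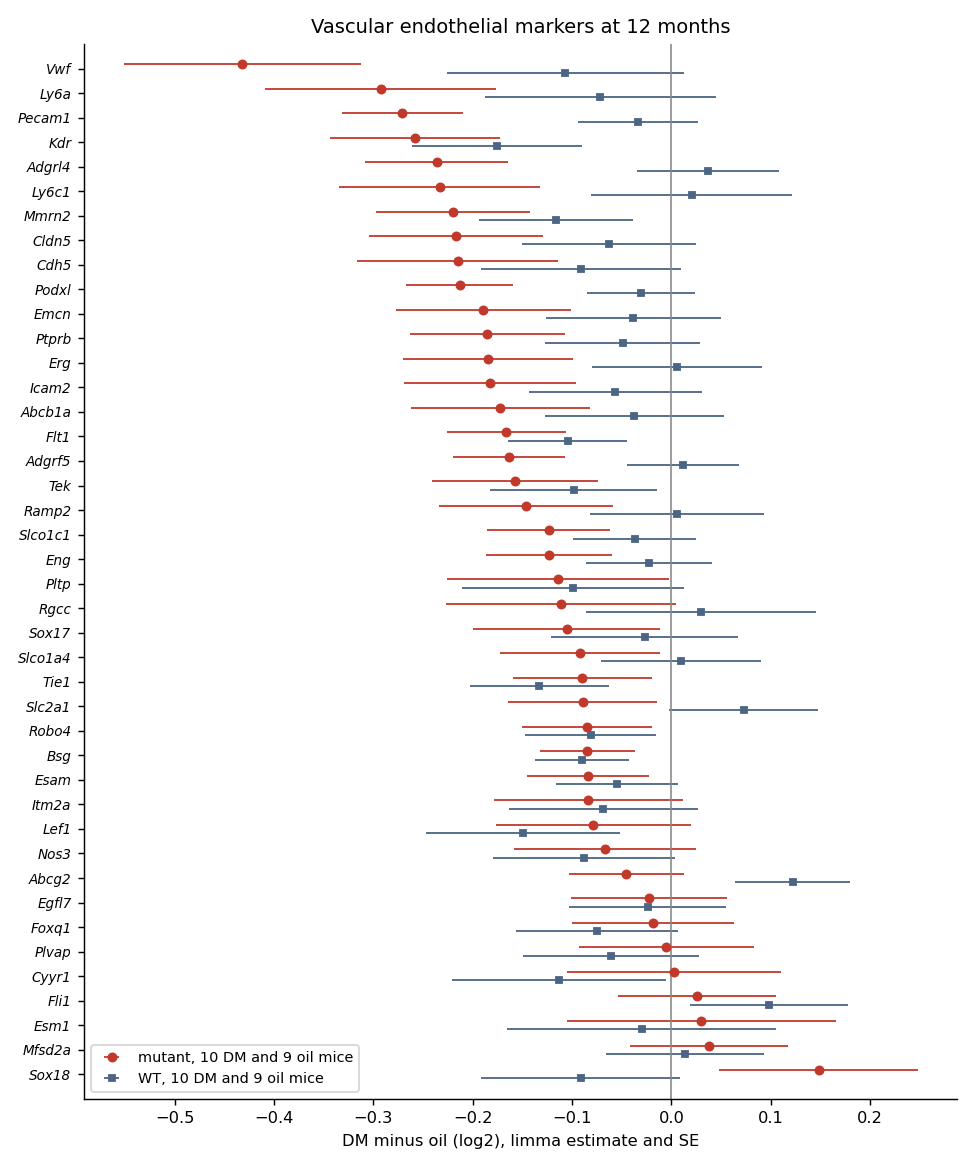
Difference of DM minus oil at 12 months (log2, horizontal axis) for the 42 endothelial markers, 1 line per gene, as the limma estimate with its SE, in Chd8V986*/+ mutants (red circles) and in WT littermates (blue squares). Most mutant estimates lie left of 0, from −0.43 for Vwf to 0.15 for Sox18.

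Pecam1, an adhesion molecule that holds endothelial cells to one another, came nearest to a call among the markers. The gene lies on the minus strand of chromosome 11 at chr11:106654217-106750628 (GRCm38, the assembly of mm10). Its level was 8.82 (lowest), 9.18 (median) and 9.30 (highest) in DM mutants and 9.17, 9.36 and 9.84 in oil mutants. All 10 DM mice lay below the oil median and 5 below every oil mouse, while the other 5 DM mice lay within the range of the oil mice. The difference was −0.27 (SE 0.0609, adjusted p = 0.285) in mutants and −0.03 (SE 0.0609) in WT littermates, and the difference between genotypes had an adjusted p of 1.

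Podxl, which encodes podocalyxin, a glycoprotein of the vessel's inner surface, had levels of 8.82, 9.19 and 9.30 in DM mutants and 9.22, 9.32 and 9.60 in oil mutants. All 10 DM mice were below the oil median, and 7 were below every oil mouse. The difference was −0.21 (SE 0.0541, adjusted p = 0.366), and −0.03 in WT. Vwf, which encodes von Willebrand factor, the clotting protein stored in endothelial cells, had the most negative difference of the list. Its levels were 8.96, 9.33 and 9.64 in DM mutants and 9.31, 9.62 and 10.8 in oil mutants, where 1 mouse (oil replicate 9, litter T) stood far above the rest. The difference was −0.43 (SE 0.119, adjusted p = 0.544) with that mouse and −0.28 without it. Adgrl4, an adhesion receptor of sprouting endothelium, differed by −0.24 (SE 0.0718, adjusted p = 0.726) in mutants and by 0.04 in WT. Its 10 DM mice ran from 8.00 to 8.72 and its 9 oil mice from 8.44 to 9.07, and 5 DM mice lay below every oil mouse.

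The genes that close the gaps between endothelial cells gave similar values. Cldn5, the main claudin of brain vessels, had levels of 10.3, 10.7 and 11.0 in DM mutants and 10.6, 10.8 and 11.2 in oil mutants, a difference of −0.22 (SE 0.0876, adjusted p = 1). Cdh5, the cadherin of endothelial junctions, also differed by −0.22 (SE 0.101, adjusted p = 1), with DM mice from 9.38 to 9.90 and oil mice from 9.74 to 10.2. For both genes the groups overlapped, with 7 of 10 DM mice below the oil median. Ptprb, a receptor phosphatase that restrains angiopoietin and VEGF receptors, had levels of 7.74, 7.96 and 8.05 in DM mutants and 7.88, 8.14 and 8.38 in oil mutants. The 10 DM mice were all below the oil median, and the difference was −0.19 (SE 0.0783, adjusted p = 1). Sox18, a transcription factor of endothelium, went the other way, at 0.15 (SE 0.0998, adjusted p = 1), which became 0.08 without oil replicate 4.

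**Figure D2:**
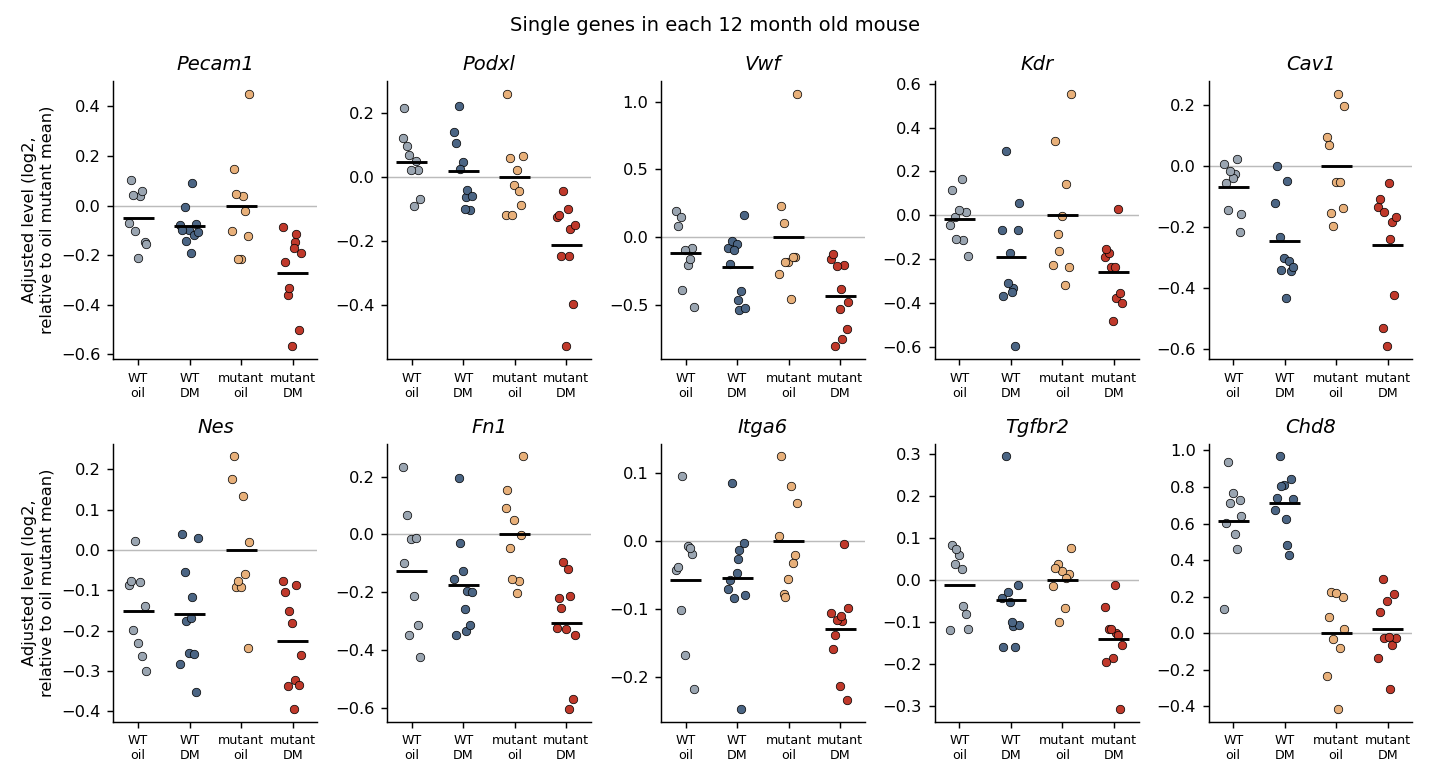
Level of 10 genes in each 12 month old mouse (log2, vertical axis, relative to the mean of the oil-exposed mutants), by genotype and exposure, 1 point per mouse, with a line at the group mean. For Pecam1, Podxl, Cav1, Nes, Fn1 and Tgfbr2 all 10 DM mutants lie below the oil median, while for Chd8 the ranges of both mutant groups overlap and their medians lie below those of WT mice.

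The endothelial list was not evenly lower across the DM litters. Averaged over its 42 genes and set to 0 at the mean of the oil mutants, the list ran from −0.32 to 0.02 in DM mutants with a median of −0.08, and from −0.14 to 0.23 in oil mutants with a median of −0.04. The 3 lowest mutants were DM replicates 3, 4 and 5 (litters G, J and L) at −0.30, −0.32 and −0.28, and the other 7 DM mice lay within the range of the oil mice. The highest was oil replicate 9 (litter T) at 0.23. In WT littermates the list ran from −0.16 to −0.02 after DM and from −0.12 to 0.07 after oil. The WT littermates of the 3 lowest mutants lay at −0.03, −0.12 and −0.08, and the WT mouse of litter T at −0.12. Averaged blood cell markers were 1.02 in oil replicate 9 and between −0.51 and 0.33 in the other 8 oil mutants, and their part in the endothelial result was not tested. Without oil replicate 9 the median difference of the endothelial list was still below 0, as it was in each of 34 alternatives (−0.16 to −0.09).

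**Figure D3:**
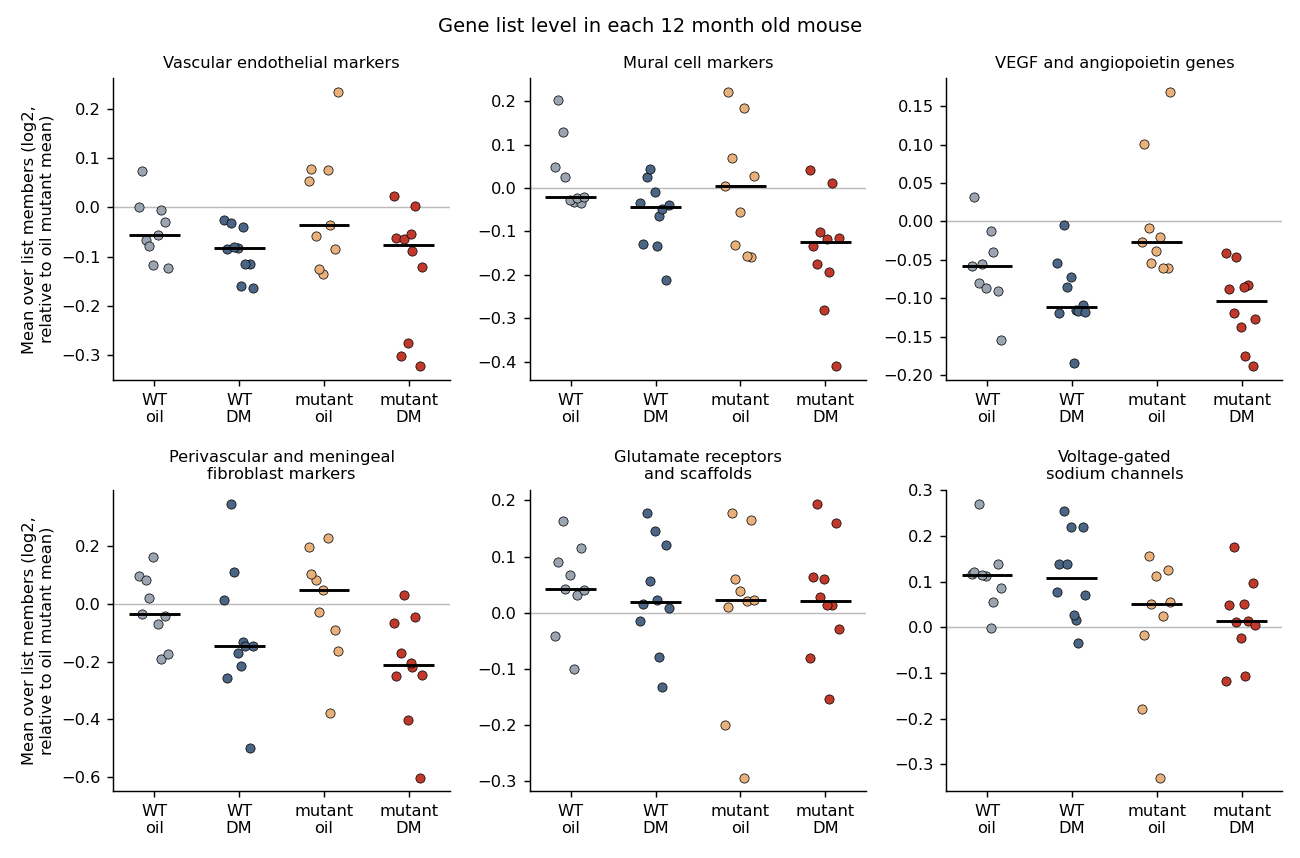
Mean of the members of 6 gene lists in each 12 month old mouse (log2, vertical axis, relative to the mean of the oil-exposed mutants), by genotype and exposure, 1 point per mouse, with a line at the group median. Endothelial, mural, VEGF and fibroblast lists have lower medians in DM mutants than in oil mutants with overlapping ranges, while glutamate receptor and sodium channel genes overlap almost wholly between the mutant groups.

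Ligands and receptors of the VEGF and angiopoietin pathway lay lower with the least overlap of any vessel list. With the filter on the mean, 22 of its 23 genes were tested, 20 lay lower against 47.2% of all genes, 7 were lower at an unadjusted p under 0.05, 9 lay lower in all 4 batches against 4.73% of all genes, and limma called 0. The median difference was −0.11 in mutants and −0.04 in WT. The average over 23 members that the other filter kept ran from −0.19 to −0.04 in DM mutants with a median of −0.10, and from −0.06 to 0.17 in oil mutants with a median of −0.03. All 10 DM mice were below the oil median and 8 below every oil mouse. In WT littermates the same average had a median of −0.11 after DM and −0.06 after oil, so the DM mutants lay at the level of the DM WT mice.

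Among the ligands, Pgf (placental growth factor, which binds Flt1) had levels of 6.67, 6.81 and 7.05 in DM mutants and 6.77, 7.06 and 7.27 in oil mutants, a difference of −0.20 (SE 0.0746, adjusted p = 1). Vegfc, which drives lymphatic and venous growth, had levels of 6.63, 6.91 and 7.14 against 6.75, 7.16 and 7.46, a difference of −0.19 (SE 0.0794, adjusted p = 1). The 10 DM mice were all below the oil median for either ligand, although the ranges overlapped. WT littermates differed by 0.00 for Pgf and by 0.03 for Vegfc. Among the receptors, Kdr (VEGF receptor 2) had levels of 11.7, 12.0 and 12.2 in DM mutants and 11.9, 12.1 and 12.8 in oil mutants. It differed by −0.26 (SE 0.0857, adjusted p = 1) in mutants and by −0.18 (SE 0.0857) in WT littermates. Flt1 (VEGF receptor 1, which holds VEGF back from Kdr) had levels of 6.82, 7.12 and 7.23 against 7.11, 7.23 and 7.41, with all 10 DM mice below the oil median and 5 below every oil mouse. It differed by −0.17 (SE 0.0598, adjusted p = 1) in mutants and by −0.10 in WT.

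The promoters of Kdr, Flt1 and Adgrl4 are shown because ETS-family factors such as Erg, which drive endothelial genes, bind DNA around a GGAA core. The 250 bases before the start are given 5′ to 3′ along the gene's strand, from RefSeq on GRCm38.p6, with AGGAAG, searched on both strands, in capitals. They are chr5:75978456-75978705 for Kdr (minus strand), chr5:147726012-147726261 for Flt1 (minus strand) and chr3:151437632-151437881 for Adgrl4 (plus strand).
Kdr: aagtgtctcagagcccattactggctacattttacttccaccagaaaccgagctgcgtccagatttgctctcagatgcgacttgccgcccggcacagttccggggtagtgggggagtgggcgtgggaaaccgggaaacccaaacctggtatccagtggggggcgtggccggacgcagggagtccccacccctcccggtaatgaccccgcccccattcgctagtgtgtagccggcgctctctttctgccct
Flt1: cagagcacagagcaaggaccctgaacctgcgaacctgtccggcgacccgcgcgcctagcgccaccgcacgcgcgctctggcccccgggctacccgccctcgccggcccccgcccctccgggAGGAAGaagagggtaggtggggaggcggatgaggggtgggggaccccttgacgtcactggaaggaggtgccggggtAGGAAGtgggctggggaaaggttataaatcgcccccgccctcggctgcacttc
Adgrl4: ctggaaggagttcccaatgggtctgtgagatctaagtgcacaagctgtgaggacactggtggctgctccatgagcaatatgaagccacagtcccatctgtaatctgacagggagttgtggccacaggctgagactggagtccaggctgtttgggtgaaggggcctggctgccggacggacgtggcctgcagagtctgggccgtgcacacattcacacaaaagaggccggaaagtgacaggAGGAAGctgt
The motif was found 2 times in the Flt1 window, 1 time in that of Adgrl4 and 0 times in that of Kdr. It was in 9686 of 32851 promoter windows of all genes (29.5%) and in 21 of 36 windows (58.3%) of the 25 endothelial markers, of 42, that had one in the table. Only the full AGGAAG was marked and counted. Each window shown, that of Kdr included, also holds GGAA within other letters, left in lower case. A match of these letters describes the window and does not show that a factor binds there.

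TGF-beta and BMP signaling, which matures vessels through endothelial and mural receptors, was near the median of all genes as a list. Of 25 members 16 lay lower and 3 were lower at an unadjusted p under 0.05, with a median of −0.02 in mutants and −0.04 in WT. Single members lay lower. Acvrl1, a BMP receptor of endothelium, had levels of 6.07, 6.29 and 6.70 in DM mutants and 6.25, 6.58 and 6.98 in oil mutants, a difference of −0.26 (SE 0.0853, adjusted p = 0.935). Id1, a target of BMP signaling, differed by −0.29 (SE 0.12, adjusted p = 1) in mutants and −0.19 in WT. Tgfbr2, the ligand-binding TGF-beta receptor, had levels of 8.11, 8.29 and 8.41 in DM mutants and 8.32, 8.44 and 8.50 in oil mutants. All 10 DM mice were below the oil median and 8 below every oil mouse, at a difference of −0.14 (SE 0.0776, adjusted p = 1).

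Mural cell markers had a more negative median than endothelial markers, and fibroblast markers a more negative one still, with wide overlap. Of 17 mural markers 15 lay lower in mutants and 16 in WT littermates, with a median of −0.15 in mutants and −0.08 in WT. With the filter on the mean, 10 of 10 lay lower in mutants and 10 of 10 in WT. In mutants 4 were lower at an unadjusted p under 0.05, and limma called 0. The count of 4 ran from 0 (without DM replicate 5) to 5 (without oil replicate 4) when single libraries were left out. Rgs5, a regulator of G-protein signaling that marks pericytes, had levels of 12.7, 12.8 and 13.0 in DM mutants and 12.7, 13.0 and 13.2 in oil mutants, a difference of −0.14 (SE 0.0617, adjusted p = 1). Abcc9, the sulfonylurea receptor of pericytes, differed by −0.18 (SE 0.0828, adjusted p = 1) and by −0.09 without oil replicate 9. Des, the intermediate filament desmin, had levels of 4.23, 4.45 and 4.85 against 4.53, 4.70 and 5.33, with 6 DM mice below every oil mouse, and differed by −0.27 (SE 0.114, adjusted p = 1). The average of the mural list ran from −0.41 to 0.04 in DM mutants and from −0.16 to 0.22 in oil mutants, and 4 DM mice lay below every oil mouse.

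Of 18 markers of perivascular and meningeal fibroblasts 16 lay lower in mutants, 11 of them in all 4 batches, and 17 lay lower in WT littermates. The median was −0.22 in mutants and −0.08 in WT, and 1 marker was lower in mutants at an unadjusted p under 0.05. Col3a1, a fibrillar collagen, had levels of 10.7, 11.2 and 11.7 in DM mutants and 11.3, 11.8 and 12.0 in oil mutants. The 10 DM mice were all below the oil median and 6 below every oil mouse. The difference was −0.45 (SE 0.373, adjusted p = 1) in the model of 82 libraries and −0.46 (SE 0.119, adjusted p = 0.791) when the 19 mutant libraries were fitted alone, since the spread of the PND 5 mice enters the former. Bgn, which encodes the proteoglycan biglycan, had levels of 9.85, 10.5 and 10.6 against 10.4, 10.6 and 10.9 and differed by −0.26 (SE 0.122, adjusted p = 1). Fibroblasts of this kind sit mostly in the meninges, and how much of that membrane stayed on the cortex is not given in the labels, so its part was not tested.

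Genes of the basement membrane and matrix were lower as a list by less than the vessel cell markers. Of 38 tested 28 lay lower, 9 in all 4 batches, 4 were lower at an unadjusted p under 0.05 and limma called 0, with a median of −0.07 in mutants and −0.05 in WT. Without oil replicate 9 the median in mutants was −0.04. Fn1, which encodes fibronectin, the matrix protein that integrins grip, separated the groups best. Its levels were 12.1, 12.4 and 12.6 in DM mutants and 12.5, 12.7 and 12.9 in oil mutants. All 10 DM mice were below the oil median and 8 below every oil mouse. The difference was −0.31 (SE 0.0977, adjusted p = 0.902) in mutants and −0.05 in WT. Nid1, which links laminin to collagen in basement membranes, had levels of 13.1, 13.2 and 13.4 against 13.1, 13.5 and 13.7 and differed by −0.25 (SE 0.0919, adjusted p = 1). Col5a2, a collagen that nucleates fibrils, differed by −0.25 (SE 0.104, adjusted p = 1). Hspg2, the heparan sulfate proteoglycan perlecan, differed by −0.24 (SE 0.116, adjusted p = 1) and by −0.14 without oil replicate 9.

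Integrins, the receptors that bind this matrix, had a median of −0.02 with 9 of 15 lower, and a median of −0.06 without DM replicate 3. Of the 15, 4 were lower and 0 higher at an unadjusted p under 0.05, and limma called 0. Linkers of focal adhesions had a median of −0.02, with 14 of 24 lower. Itga6, the laminin receptor subunit of endothelium, had the smallest p of the integrins. Its levels were 10.1, 10.2 and 10.3 in DM mutants and 10.3, 10.3 and 10.5 in oil mutants, and 9 of 10 DM mice lay below every oil mouse. The difference was small, −0.13 (SE 0.0367, adjusted p = 0.612), and 0.00 in WT. Itgb1, the beta subunit most integrins share, differed by −0.11 (SE 0.0445, adjusted p = 1). Itga1, a collagen-binding subunit, differed by −0.19 (SE 0.0922, adjusted p = 1) and Itga5, the fibronectin-binding subunit, by −0.17 (SE 0.0811, adjusted p = 1). Blood-brain barrier genes had a median of −0.05 with 22 of 27 lower, 7 at an unadjusted p under 0.05. Slc22a8, an organic anion transporter of the barrier, had levels of 7.59, 7.88 and 8.21 in DM mutants and 7.95, 8.10 and 8.29 in oil mutants, a difference of −0.21 (SE 0.095, adjusted p = 1). F11r, a junctional adhesion molecule, differed by −0.16 (SE 0.069, adjusted p = 1). Tfrc, the transferrin receptor that carries iron across the barrier, differed by 0.09 (SE 0.0465, adjusted p = 1), and by 0.05 without oil replicate 8.

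A set of 11 genes was picked by the study on these same libraries as lower after DM, so its direction is not independent evidence. With the filter on the mean 9 were tested, 8 lay lower, 6 at an unadjusted p under 0.05, and limma called 0. The median was −0.19 in mutants and −0.04 in WT. The study's own count test called genes in mutants and in WT mice, whereas limma with the filter on the mean made no call in either genotype. By quantitative PCR of cortex, the study also reported lower Kdr and Ptprb, which it describes as unique to DM mutants of this age. The paper does not state whether these were the sequenced mice. Its staining of vessels found the length and density of vessels unchanged after DM. Kdr, Ptprb, Fn1, Tgfbr2 and Slc22a8 of this set are described above. Myof, which encodes myoferlin, a membrane-repair protein that steadies Kdr, differed by −0.21 (SE 0.105, adjusted p = 1), with 9 of 10 DM mice below the oil median. Arhgef5, a nucleotide exchange factor of small GTPases, differed by −0.18 (SE 0.0818, adjusted p = 1), but by −0.49 and −0.43 in batches 1 and 2 and by 0.02 in batches 3 and 4. Thsd4, a matrix protein that promotes microfibrils, differed by −0.16 (SE 0.124, adjusted p = 1) and by −0.15 in WT. Msln (mesothelin), kept by the filter on ties, differed by −0.10 (SE 0.132, adjusted p = 1) and by −0.04 without DM replicate 4.

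**Figure D4:**
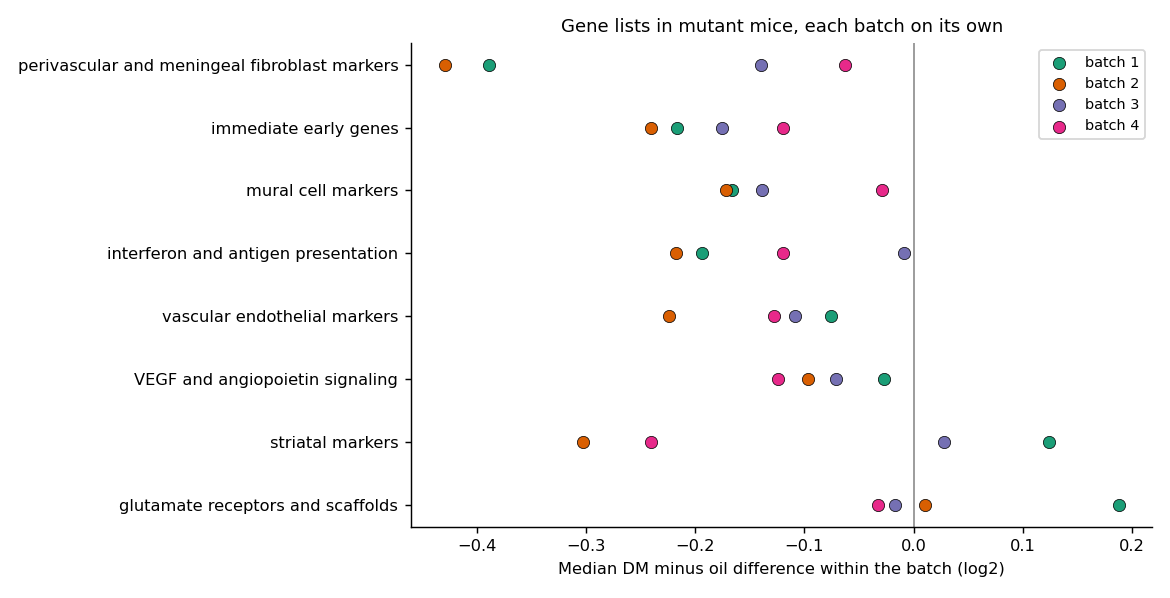
Median difference of DM minus oil (log2, horizontal axis) over the members of 8 gene lists, computed in the mutants of each of the 4 batches alone (1 point per batch). Fibroblast, mural, endothelial, VEGF, interferon and immediate early lists lie below 0 in every batch, while striatal markers and glutamate receptor genes lie on both sides of 0.

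The genes of the whole table with the smallest p held several outside the vessel lists. They were chosen by their p, so their values are a description. Cav1, the coat protein of caveolae, which are dense in endothelium, had levels of 10.2, 10.7 and 10.8 in DM mutants and 10.6, 10.8 and 11.1 in oil mutants. It differed by −0.26 (SE 0.0627, adjusted p = 0.285) in mutants and by −0.18 (SE 0.0627) in WT. Nes, the intermediate filament nestin of neural progenitors and of some endothelial cells and pericytes, had levels of 12.5, 12.7 and 12.8 against 12.7, 12.8 and 13.1. It differed by −0.23 (SE 0.0536, adjusted p = 0.285) in mutants and by −0.01 in WT, where the medians were 12.8 after oil and 12.7 after DM. Cilp2, a matrix protein of cartilage, had levels of 8.13, 8.70 and 8.90 against 8.74, 8.97 and 9.23, with 6 DM mice below every oil mouse, at a difference of −0.34 (SE 0.0805, adjusted p = 0.285) in mutants and 0.01 in WT.

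Sdc1 (syndecan 1), a cell-surface heparan sulfate proteoglycan, differed by −0.29 (SE 0.0733, adjusted p = 0.366), with DM mice from 12.2 to 13.0 and oil mice from 12.8 to 13.1. Rassf9, a protein of recycling endosomes, had levels of 7.54, 7.76 and 7.84 in DM mutants and 7.81, 7.99 and 8.26 in oil mutants. Of its 10 DM mice 8 lay below every oil mouse, at a difference of −0.26 (SE 0.0652, adjusted p = 0.366). The mitotic genes Cenpf (a kinetochore protein) and Bub1 (a spindle checkpoint kinase) were also among them. Cenpf differed by −0.27 (SE 0.0698, adjusted p = 0.417). For Bub1 the difference was −0.33 (SE 0.0923, adjusted p = 0.544) in mutants and 0.11 in WT, and its 10 DM mutants were all below the oil median. Gm1943, a processed pseudogene whose reads may come from its parent gene, differed by −0.27 (SE 0.0734, adjusted p = 0.544).

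Among the higher genes with the smallest p, differences were smaller than those just given. Atrip, the partner of the DNA damage kinase Atr, had levels of 9.36, 9.51 and 9.65 in DM mutants and 9.22, 9.34 and 9.46 in oil mutants. Above the oil median lay all 10 DM mice, and 7 lay above every oil mouse, at a difference of 0.16 (SE 0.0428, adjusted p = 0.544) in mutants and 0.01 in WT. Cog8, a subunit of the Golgi tethering complex, differed by 0.20 (SE 0.0567, adjusted p = 0.679). Its DM mice ran from 8.26 to 8.74 and its oil mice from 7.94 to 8.51. Ccdc80, a secreted matrix-binding protein, differed by 0.15 (SE 0.0444, adjusted p = 0.679), with 7 DM mice above every oil mouse. Prmt7, an arginine methyltransferase, differed by 0.11 (SE 0.0327, adjusted p = 0.726), with all 10 DM mice above the oil median. Ptcd2, a mitochondrial RNA-processing protein, differed by 0.08 (SE 0.0283, adjusted p = 1), with 8 DM mice above every oil mouse and 1 below every oil mouse.

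Among the filters, the filter on ties, which keeps genes of low mean value, gave 1 call of 15473 genes (0.00646%), and the same gene was called with no filter (adjusted p = 0.0246). With the filter on ties there were 325 lower genes and 153 higher genes (0.989%) at an unadjusted p under 0.05. The called gene, 8430408G22Rik, listed in RefSeq as a synonym of Depp1, a FOXO target of starved cells, was named after its value was seen. Its levels were 3.87, 4.49 and 5.21 in DM mutants and 4.93, 5.23 and 6.45 in oil mutants. The 10 DM mice were all below the oil median, 8 were below every oil mouse, and oil replicate 9 was the highest. The difference was −0.83 (SE 0.156, adjusted p = 0.0156) in mutants and −0.20 in WT, and the difference between genotypes was not called (adjusted p = 1). Without oil replicate 9 it was −0.67 with an adjusted p of 0.37. The call was also lost without oil replicate 4 (−0.80) and without DM replicates 1 (−0.79), 4 (−0.76) or 9 (−0.80). It held in 22 of 34 alternatives. The others in which it was lost were groups only, batch as a number, 12 month libraries alone, mutant libraries alone, the replicate block, and leaving out batch 2 or batch 4.

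The targets of DM itself were close to the median of all genes. Of 17 voltage-gated sodium channel genes 6 were on the lower side and 11 on the higher side, the median being 0.02 and 1 at an unadjusted p under 0.05 in each direction. Scn9a, a channel subunit best known from sensory neurons, had levels of 11.4, 11.6 and 12.0 in DM mutants and 11.7, 11.9 and 12.1 in oil mutants, a difference of −0.21 (SE 0.0892, adjusted p = 1), and 0.00 in WT. Scn11a, a subunit of pain-sensing neurons, differed by 0.16 (SE 0.0812, adjusted p = 1), and 6 DM mice lay above every oil mouse. Scn1a, the main sodium channel of fast-spiking interneurons, differed by 0.10 (SE 0.0765, adjusted p = 1), and by 0.01 without oil replicate 2. Calcium and chloride channel genes had a median of 0.02 with 16 of 21 higher, and GABA-A receptor genes a median of 0.02 with 8 of 12 higher. Glutamate receptors and their scaffolds had a median of 0.04 with 21 of 26 higher, against 52.8% of all genes, and 0 of these 3 lists' members reached an unadjusted p under 0.05. Without oil replicate 2 the medians were −0.03 for sodium channels and −0.01 for each of the 3 other lists. Grik4, a kainate receptor subunit, had levels of 8.19, 8.30 and 8.45 in DM mutants and 8.07, 8.18 and 8.35 in oil mutants, a difference of 0.08 (SE 0.0485, adjusted p = 1), with all 10 DM mice above the oil median. Within batches the glutamate list was at 0.19 in batch 1, 0.01 in batch 2, −0.02 in batch 3 and −0.03 in batch 4.

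Genes of drug clearance and dopamine signaling did not stand apart. Xenobiotic metabolism genes had a median of −0.03 with 18 of 25 lower, and dopamine genes a median of −0.03 with 9 of 13 lower, with 0 of either at an unadjusted p under 0.05. Cyp1b1, a cytochrome P450 that is also made by mural cells and fibroblasts, had levels of 6.70, 7.11 and 7.24 in DM mutants and 6.96, 7.40 and 7.63 in oil mutants. All 10 DM mice were below the oil median, and the difference was −0.29 (SE 0.153, adjusted p = 1), against 0.01 in WT. Abcb1a, the P-glycoprotein pump of brain endothelium, differed by −0.17 (SE 0.0899, adjusted p = 1).

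**Figure D5:**
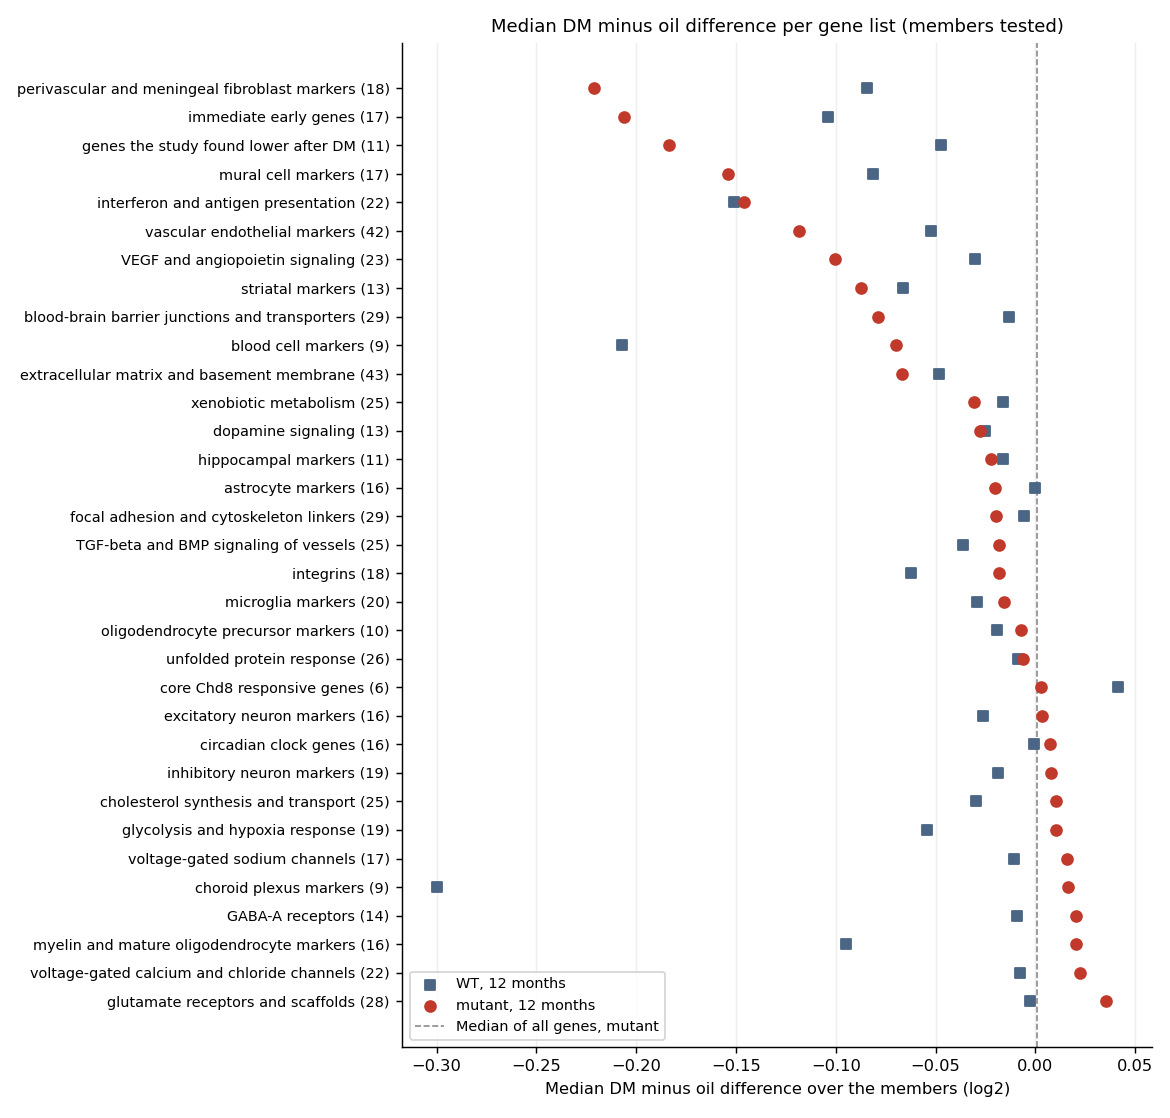
Median difference of DM minus oil at 12 months (log2, horizontal axis) over the members of each gene list that the filter on ties kept (number in brackets), in mutants (red circles) and WT littermates (blue squares), with a dashed line at the median of all genes in mutants. Mutant medians run from −0.22 for fibroblast markers to 0.04 for glutamate receptors and scaffolds. Medians of the choroid plexus, blood cell and myelin lists are lower in WT than in mutants. Choroid plexus averages ran up to 2.00 in WT oil mice.

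Of 22 interferon and antigen presentation genes 19 lay lower in DM mutants, with a median of −0.15, and 0 were at an unadjusted p under 0.05. The WT median was also −0.15, but rested on 1 mouse. WT oil replicate 4 had a list average of 1.41 and the other 8 WT oil mice lay between −0.24 and 0.03, and without it, a choice made after seeing the data, the WT median was 0.03 with 8 of 22 lower. H2-K1, a class I antigen-presenting molecule, had levels of 3.73, 4.19 and 4.34 in DM mutants and 4.07, 4.35 and 4.65 in oil mutants. The 10 DM mice were all below the oil median, at a difference of −0.21 (SE 0.124, adjusted p = 1). Ifit1, an interferon-induced antiviral protein, differed by −0.33 (SE 0.175, adjusted p = 1). The immediate early genes, which neurons switch on within minutes of firing, had a median of −0.21 with 15 of 17 lower, and −0.10 in WT. The median was −0.12 without DM replicate 1 (litter A). Their average spread over mice far more than that of vessel genes, from −0.97 to 0.32 in DM mutants and from −0.28 to 0.38 in oil mutants, and 2 DM mutants (litters A and P) lay at −0.97 and −0.899. Only 5 of 10 DM mice were below the oil median, and the median of the average was −0.08 in DM and −0.15 in oil mutants. Arc, an activity-driven synaptic gene, differed by −0.52 (SE 0.287, adjusted p = 1), by −0.29 without the mouse of litter A and by −0.34 without that of litter P. The transcription factor Fosl2 differed by −0.22 (SE 0.0877, adjusted p = 1), and Nr4a3, another, by −0.25 (SE 0.119, adjusted p = 1).

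Markers of other cells of the cortex had medians near 0. They were −0.02 for 20 microglial markers (15 lower) and −0.02 for 14 astrocyte markers (12 lower). They were −0.002 for 9 markers of oligodendrocyte precursors (5 lower), 0.00 for 16 of excitatory neurons (6 lower) and 0.01 for 19 of inhibitory neurons (9 lower). Over all genes, 47.2% lay lower with the filter on the mean and 49.3% with the filter on ties. Most microglial and astrocyte markers therefore lay lower as well, by small amounts, with 0 at an unadjusted p under 0.05. The astrocyte median was −0.26 in batch 1 and 0.09, 0.01 and 0.05 in batches 2, 3 and 4. For microglial markers it was −0.12 in batch 1 and 0.02, −0.005 and 0.03 in batches 2, 3 and 4. Gfap, the filament of reactive astrocytes, differed by −0.13 (SE 0.105, adjusted p = 1), and by −0.06 without oil replicate 2. Myelin genes had a median of 0.02 in mutants and −0.10 in WT, with 11 of 16 higher in mutants. Cholesterol synthesis genes had a median of 0.01, the unfolded protein response −0.01, glycolysis and the hypoxia response 0.01, circadian clock genes 0.01 and the study's core Chd8-responsive genes 0.00, with 0 members of these lists at an unadjusted p under 0.05 in mutants.

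Markers of tissue that a cortical dissection can carry along were also measured. Of 12 striatal markers 12 lay lower, with a median of −0.09 in mutants and −0.08 in WT, but the batch medians were 0.12, −0.30, 0.03 and −0.24 for the 13 kept by the filter on ties. Adora2a, the adenosine receptor of striatal neurons, differed by −0.22 (SE 0.159, adjusted p = 1). Hippocampal markers had a median of −0.02 with 6 of 11 lower. Choroid plexus markers had a median of 0.02 in mutants and −0.30 in WT. Averages of this list in WT oil mice ran up to 2.00 (SD 0.85), while the median WT mouse lay at 0.06 after oil and after DM. Ttr, the most abundant product of the choroid plexus, differed by −0.38 (SE 0.572, adjusted p = 1) in mutants and by −0.07 without oil replicate 2. Blood cell markers had a median of −0.07 with 8 of 9 lower in mutants, and 0.02 without oil replicate 9. Slc4a1, the anion exchanger of red cells, differed by −0.33 (SE 0.151, adjusted p = 1), and by −0.13 without that mouse. The part of these tissues in the vessel result was not tested. The defining markers of all these cell types passed the filter on ties, 8 of 8 endothelial ones included.

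At PND 5, in other mutants of both sexes whose dams were still being dosed, the same comparison gave medians above 0 for the vessel lists. Limma called 315 of 12152 genes there (2.59%) and 355 of 15473 with the filter on ties (2.29%), and 41.3% and 46.3% of genes lay higher. These calls treat littermates as independent, although the 10 DM and 10 oil mutants of PND 5 came from 7 and 6 litters. With litter as a random effect limma called 0 and 4 genes by these filters, with 1544 and 2049 at an unadjusted p under 0.05, and 0 members of the lists named next. Without that effect, endothelial markers had a median of 0.10 with 34 of 42 higher and 3 called, mural markers 0.19 with 16 of 17 higher and 1 called, fibroblast markers 0.93 with 17 of 18 higher and 3 called, and matrix genes 0.27 with 35 of 38 higher and 9 called. Striatal markers had a median of 0.45 with 11 of 12 higher and 5 called, and inhibitory neuron markers 0.12 with 16 of 19 higher and 6 called, and their part in the vessel values at PND 5 was not tested. By the labels, most DM mutants of PND 5 had a different dissector from most oil mutants. The model holds a dissector term, and the part of dissection in these values was not tested. Tgfbr2 was called at PND 5, at 0.29 (SE 0.079, adjusted p = 0.036), but not with litter as a random effect (adjusted p = 0.211), and differed by −0.14 at 12 months. Pecam1 differed by 0.02 and Kdr by 0.10 at PND 5, neither called. The 12 month and PND 5 mice were different animals, and the difference between ages was not tested.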

How the data were processed

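Cortical RNA of 12 month old males was sequenced from stranded polyA libraries. Per the labels and Methods, the authors used cutadapt 1.12 for trimming, STAR 2.5.2b for alignment to mm10, Salmon for quantification, and DESeq2 for a variance-stabilizing transformation. The deposited values are in log2 units, with batch number, sex, dissector and litter number removed linearly (checked: each gene has a slope of 0 on these terms). The removal did not keep the groups apart, so the model has to hold the terms. The table holds 24528 genes and 82 libraries of PND 5 and 12 months. It gives no counts, so the depth of each library and the counting error are unknown. The table of untreated 18 month mice was not used here.

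In R 4.3.3, limma 3.58.1 (with statmod 1.5.0 for the litter effect) modelled 8 groups, 1 for each age, genotype and exposure, and adjusted for batch as a factor, sex, dissector and the litter's number (trended empirical Bayes, two-sided, Benjamini-Hochberg adjusted p under 0.05). This stands in for the count test of the study. The filter on the mean kept genes averaging 6 or more. The filter on ties kept genes without a tie (within 1e-09) between any 2 libraries that share age, litter, sex, batch and dissector. A gene list was read instead with the filter on ties where the filter on the mean kept under 80% of the members that the filter on ties kept. Single genes with a lower mean were taken from the fit with the filter on ties. Lists have counts and medians and no test of their own. A list average is the mean over the members kept by the filter on ties. Batch values are the mean of DM minus the mean of oil among the mutants of a batch after the litter number term was taken out, with 2 or 3 mice of either exposure.

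The members, gene lists and tests were chosen with earlier results of these data known. A gene is named if the study names it for this comparison, if it is among the 10 higher or 10 lower genes with the smallest p, if it is among the 4 members of a list with the smallest p, or if it is Chd8 or a core Chd8-responsive gene, and not all such genes are reported here. Cdh5, Sox18, Tfrc and 8430408G22Rik are outside this rule and were chosen after their values were seen. Promoter windows are from RefSeq on GRCm38.p6, gene positions from GENCODE on the same assembly. The alternatives tried were omitting the filter, a minimum mean of 8, the filter on ties, quantile normalization, median centring, other terms, 12 month or mutant libraries alone, other error models, sample weights, litter as a random effect, a replicate block, and single batches or libraries left out. Scripts were tested on simulated data. Figures were drawn with Python 3.11.15, pandas 2.3.3 and matplotlib 3.10.9.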

Additional observations from a re-analysis of the deposited data

Results flagged for a closer look

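Of 192 groups of values examined (each gene and list average described above, in the 10 DM and in the 9 oil mutants), 9 held a mouse that stood further from its neighbor than Dixon's critical value allows, about the 1 in 20 that chance gives. Oil replicate 9 (litter T) was the highest oil mutant for Vwf (10.8, group median 9.62), Slc4a1 (7.19, median 5.63) and 8430408G22Rik (6.45, median 5.23). Oil replicate 6 was the highest for Podxl (9.60, median 9.32) and oil replicate 7 the lowest for Nid1 (13.1, median 13.5). Oil replicate 2 was the lowest for Cog8 (7.94, median 8.27) and the highest for Ttr (4.19, median 1.86). Among DM mutants, replicate 5 was the lowest for Rassf9 (7.54, median 7.76) and replicate 3 the lowest for Vegfc (6.63, median 6.91).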

How the results depend on the processing

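The medians of the endothelial (−0.16 to −0.09), mural (−0.21 to −0.12), fibroblast (−0.30 to −0.17), VEGF (−0.13 to −0.08) and matrix (−0.09 to −0.04) lists stayed below 0 in every alternative run, 34 for the first 3 and 37 for the others. Many of the 63 genes followed were named for a small p in this comparison, so a kept direction is not independent evidence. Through up to 37 alternatives, 19 of them leaving out 1 library, 61 of the 63 kept their direction in each. The exceptions were Chd8, at −0.0059 with groups only, −0.0098 with batch as a number, −0.0075 with sample weights, −0.005 without batch 1 and −0.0323 to 0.062 without single libraries, and Scn1a, at −0.0071 without batch 1. The count of genes called in mutants was 1 with no filter and 1 with the filter on ties, and 0 otherwise. The genotype difference gave 1 call with sample weights (Trp73) and 2 with litter as a random effect, Trp73 (−0.57, adjusted p = 0.0148) and Lrrc46 (0.52, adjusted p = 0.0477), named after their values were seen. WT littermates gave 9 calls with sample weights and 1 without batch 1. The causes were not tested.

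At an unadjusted p under 0.05, lower genes in mutants numbered 53 with groups only, 59 with batch as a number, 390 with sample weights and 474 with no filter, against 238. Higher genes ran from 23 to 335, against 115, and genotype differences from 76 to 880, against 289. Lower endothelial genes at that p numbered 6 with groups only or batch as a number and 21 with the replicate block, against 14. Lower matrix genes numbered 1 with groups only, and 8 with 12 month libraries alone, mutant libraries alone or the replicate block, against 4. Lower mural genes numbered 0 with groups only, 7 with 12 month libraries alone, 6 with mutant libraries alone and 8 with the replicate block, against 4.

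Litter was the pairing the labels give, and DM and oil mice of a number were not littermates. Their residuals correlated at −0.659 to −0.122, with 0 of 9 pairs over 0.1. Mice of a number share a batch, and the fitted batch term makes the residuals of a batch sum to 0. Negative correlations are therefore built in, and this check could not show whether replicate numbers pair mice. With the replicate block limma called 0 genes, with 349 lower and 195 higher at an unadjusted p under 0.05, and the endothelial median was −0.15. Littermates of the 2 genotypes correlated at −0.279 to 0.644 over 19 litters, with a median of 0.097 and 8 over 0.1. They share a batch too, so the fitted batch term also bears on these values. In the model with litter as a random effect, the correlation fitted within litters of both ages was 0.391.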
